A study of Homo sapiens with 30 samples.

Results

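The comparison described here set FGFR3 with the mutation S249C against wild type FGFR3 in UMUC1 cells that carried a UTX vector. UMUC1 is an established human bladder cancer cell line, and the series record describes its own UTX, the protein of the gene KDM6A, as lost by mutation. The group UTX/S249C held 3 RNA sequencing libraries of cells with pBabe-puro FGFR3 S249C and pCDH-blasticidin wild type UTX, and the group UTX/WT held 3 libraries of cells with wild type FGFR3 in the same vector and the same UTX vector. These 6 of the 30 libraries of the series were chosen by their labels, not by any measured value, and 19399 of the 20073 genes of the deposited table passed a filter on low counts. The nearest comparison used other libraries of the same experiment, 3 each of EV/S249C and EV/WT, which carried pCDH-blasticidin with no insert in place of UTX. All 4 groups grew in medium with 10% serum, were harvested on day 3 and expressed their vectors stably. The labels do not say whether a line was 1 clone or a pool, or whether the replicates were separate cultures, so the p-values below speak of the spread among these libraries and not of that among independent cultures.

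FGFR3 is a receptor tyrosine kinase at the cell surface that, once dimerized by FGF ligands, signals through RAS and the kinases MEK and ERK. Active ERK raises transcription of genes that carry the response forward, such as the ETS factors ETV4 and ETV5, and of genes that switch it off, such as the DUSP phosphatases and the Sprouty proteins. S249C is a frequent FGFR3 mutation of bladder cancer: it puts a cysteine in the extracellular part of the receptor, and receptors with it can pair through a disulfide bond without ligand. UTX removes methyl groups from lysine 27 of histone H3 and works in the KMT2C and KMT2D complexes at enhancers. FOXA1, GATA3 and PPARG are transcription factors of luminal urothelium, the differentiated layers, whereas KRT5, KRT14 and TP63 mark the basal layer.

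The base change behind S249C lies in 1 serine codon of FGFR3, which the counts cannot read. The reference coding sequence around it is shown because it is the designed difference between the groups, with that codon in capitals and 10 codons on each side:
FGFR3 around the S249C codon: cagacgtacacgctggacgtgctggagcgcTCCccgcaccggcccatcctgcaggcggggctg
This stretch is the spliced plus strand of chromosome 4 from GENCODE v29 on GRCh38, chr4:1801719-1801872, and the codon lies at chr4:1801840-1801842, in exon 7 of transcript FGFR3-202. All 6 coding transcripts that reach the codon held the same 63 bases. The deposited values are sums per gene, so they separate neither the mutant from the wild type allele nor transcripts of the vector from those of the endogenous gene.

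FGFR3 itself (chr4:1793293-1808872, plus strand, GRCh38) had 2624, 2601 and 2538 CPM, counts scaled to library total and TMM factor and expressed as counts-per-million, in UTX/S249C, against 1288, 1246 and 1194 CPM in UTX/WT. The groups did not overlap, and the level in UTX/S249C was 2.08-fold that in UTX/WT (log2 fold change 1.06 ± 0.05 SE, adjusted p = 6.39e-08; all adjusted p-values are from the edgeR quasi-likelihood test with Benjamini-Hochberg adjustment over 19399 genes). In EV/S249C the level was 2198, 2363 and 2406 CPM, against 1227, 1377 and 1298 CPM in EV/WT. Cells of the other experiment of the series, which had no FGFR3 vector and another library kit, had a mean of 125 ± 4.74 CPM with UTX and 144 ± 6.35 CPM with the empty vector (SD, n = 3 each), values from a separate table that were not tested against these. The mutation and the amount of FGFR3 RNA therefore cannot be told apart in any difference given below. KDM6A stood at 941, 946 and 700 CPM in UTX/S249C and at 863, 869 and 739 CPM in UTX/WT, which overlapped (log2 fold change 0.07 ± 0.10, adjusted p = 0.847), and replicate 3 was the lowest library of both groups.

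Total counts were 27537079 to 28290664 per library in UTX/S249C and 21672408 to 25802360 in UTX/WT. No pair of replicates agreed within sampling noise. Replicate 3 of UTX/S249C stood apart from its group: its mean chi-square per gene was 13.5 against replicate 1 and 11.5 against replicate 2, and was 2.08 between replicates 1 and 2. The epithelial genes EPCAM and CDH1 summed to 942 to 970 CPM in UTX/S249C and 896 to 932 CPM in UTX/WT. Of the markers of other cell types, COL3A1, DCN, CDH5, SNAP25, DES and CKM had no row in the table. The leukocyte markers summed to 2.83 to 3.6 CPM in UTX/S249C and 2.85 to 3.68 CPM in UTX/WT, the endothelial markers to 1.24 to 2.28 and 1.63 to 2.16 CPM, and the fibroblast markers, mainly COL1A1, to 21.9 to 23.4 and 22.7 to 26.1 CPM. In such bulk samples, fewer cells of a type and less RNA per cell cannot be told apart.

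At an adjusted p under 0.05, 332 genes (1.71% of those tested) were higher and 259 (1.34%) lower in UTX/S249C than in UTX/WT. The changes were small: 240 of the higher and 192 of the lower genes changed by less than 1.5-fold, and the median changes were 1.31-fold and 1.32-fold. At least 2-fold changes were called for 37 higher genes (0.191%) and 18 lower genes (0.0928%), of which 11 and 5 averaged 2 CPM or more over the 6 libraries. In all 591 called genes (3.05%) the 3 libraries of one group lay wholly above those of the other, which was the case for 20.3% of all genes tested. With 1 library left out, so that its group held 2, fewer genes were called. Without UTX/WT replicate 1, 2 or 3 the counts were 178 higher and 129 lower, 172 and 119, and 208 and 145. Without UTX/S249C replicate 1, 2 or 3 they were 272 and 167, 226 and 153, and 321 and 214. Without replicate 3 of both groups they were 195 and 151. No gene of the 591 changed sign in any of these fits.

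**Figure D1:**
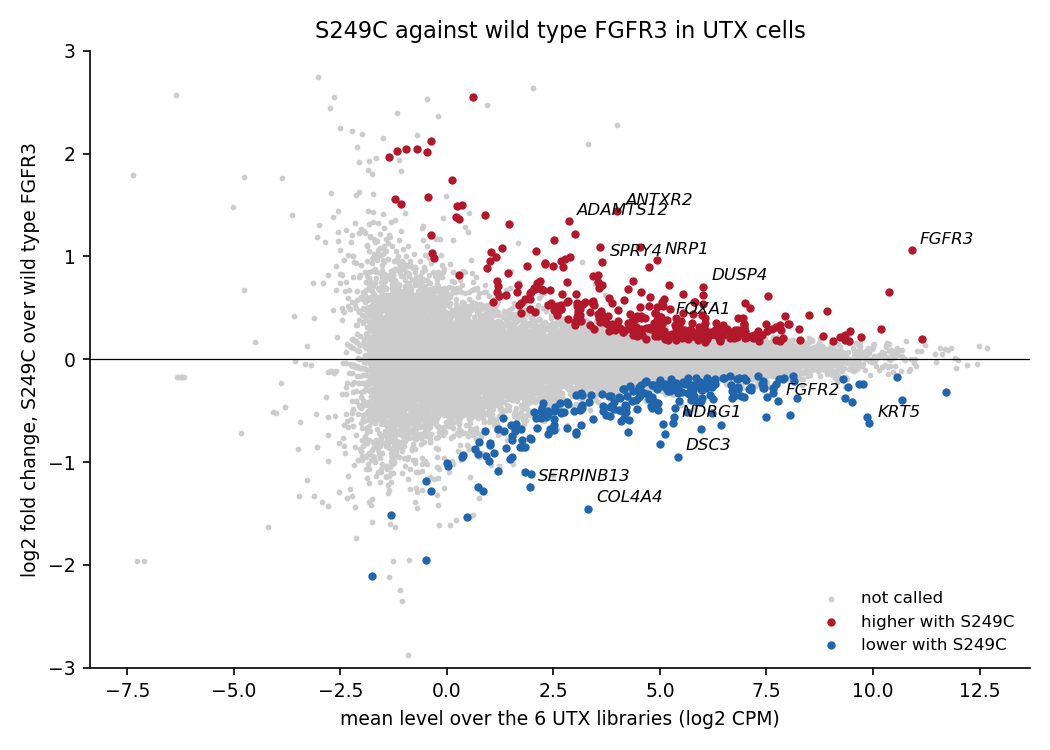
Log2 fold change of UTX/S249C over UTX/WT (vertical) against the mean level over the 6 libraries in log2 CPM (horizontal), with 1 point per gene, red for called higher and blue for called lower at an adjusted p under 0.05. FGFR3 is the called gene farthest above 0 among highly expressed genes, most called genes lie close to 0, and 53 genes beyond 3 on the vertical axis, 11 of them called, are outside the plot, as are 7 genes at 0 in all 6 libraries.

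The MAPK feedback and target genes were the list with the highest share of rises among lists of at least 10 genes tested. Of its 28 members tested, 8 were higher and 0 lower, beside 1.71% and 1.34% of all genes, and the list's median log2 fold change was 0.13, beside -0.005 over all genes. At an unadjusted p under 0.05 the list held 14 rises and 3 falls, and by DESeq2 at an adjusted p under 0.05 10 and 0. Over all genes tested, 14.3% had an unadjusted p under 0.05, in either direction, and DESeq2 called 363 higher and 283 lower. DUSP4, a nuclear phosphatase that inactivates ERK, had 77.7, 81.2 and 81.0 CPM in UTX/S249C, against 48.1, 51.0 and 48.0 CPM in UTX/WT (1.63-fold, adjusted p = 7.98e-07). SPRY4, a Sprouty inhibitor of receptor signalling, had 17.4, 16.5 and 15.2 CPM in UTX/S249C and 8.48, 8.76 and 8.34 CPM in UTX/WT (1.92-fold, adjusted p = 5.37e-06). Both genes were separated widely from the wild type libraries. The ETS factor ETV5 had 14.9, 13.5 and 16.3 CPM in UTX/S249C, against 8.48, 8.20 and 8.73 CPM in UTX/WT (1.76-fold, adjusted p = 3.17e-05). Its relative ETV4 had 27.3, 29.3 and 30.1 CPM in UTX/S249C, against 20.0, 17.1 and 18.0 CPM in UTX/WT (1.57-fold, adjusted p = 1.12e-04). DUSP6, the phosphatase that acts on ERK in the cytoplasm, rose 1.22-fold (adjusted p = 0.00235), the cytokine LIF 1.33-fold (adjusted p = 0.00743), the AP-1 subunit FOSL1 1.25-fold (adjusted p = 0.0193) and the urokinase receptor PLAUR 1.18-fold (adjusted p = 0.0341).

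Other members of that list did not pass. SPRED1 and SPRED2, which also restrain RAS, differed by 0.04 and 0.02 on the log2 scale (adjusted p = 0.832 and 0.962), SPRY2 one of 0.16 (adjusted p = 0.567) and the cyclin CCND1 one of -0.10 (adjusted p = 0.248). EGR1, an immediate early transcription factor, had 4.37, 4.77 and 4.31 CPM in UTX/S249C and 6.14, 6.15 and 5.89 CPM in UTX/WT, with every S249C library below every wild type library, but did not pass (adjusted p = 0.109). The calls of DUSP4, SPRY4, ETV5, ETV4 and DUSP6 were kept in each of the 14 alternative fits. FOSL1 lost its call without UTX/WT replicate 1, 2 or 3 or UTX/S249C replicate 2 (adjusted p = 0.0673, 0.0584, 0.0821 and 0.0513). The list's count of rises was 6 to 8 with 1 library of the 6 left out and 5 without replicate 3 of both groups.

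**Figure D2:**
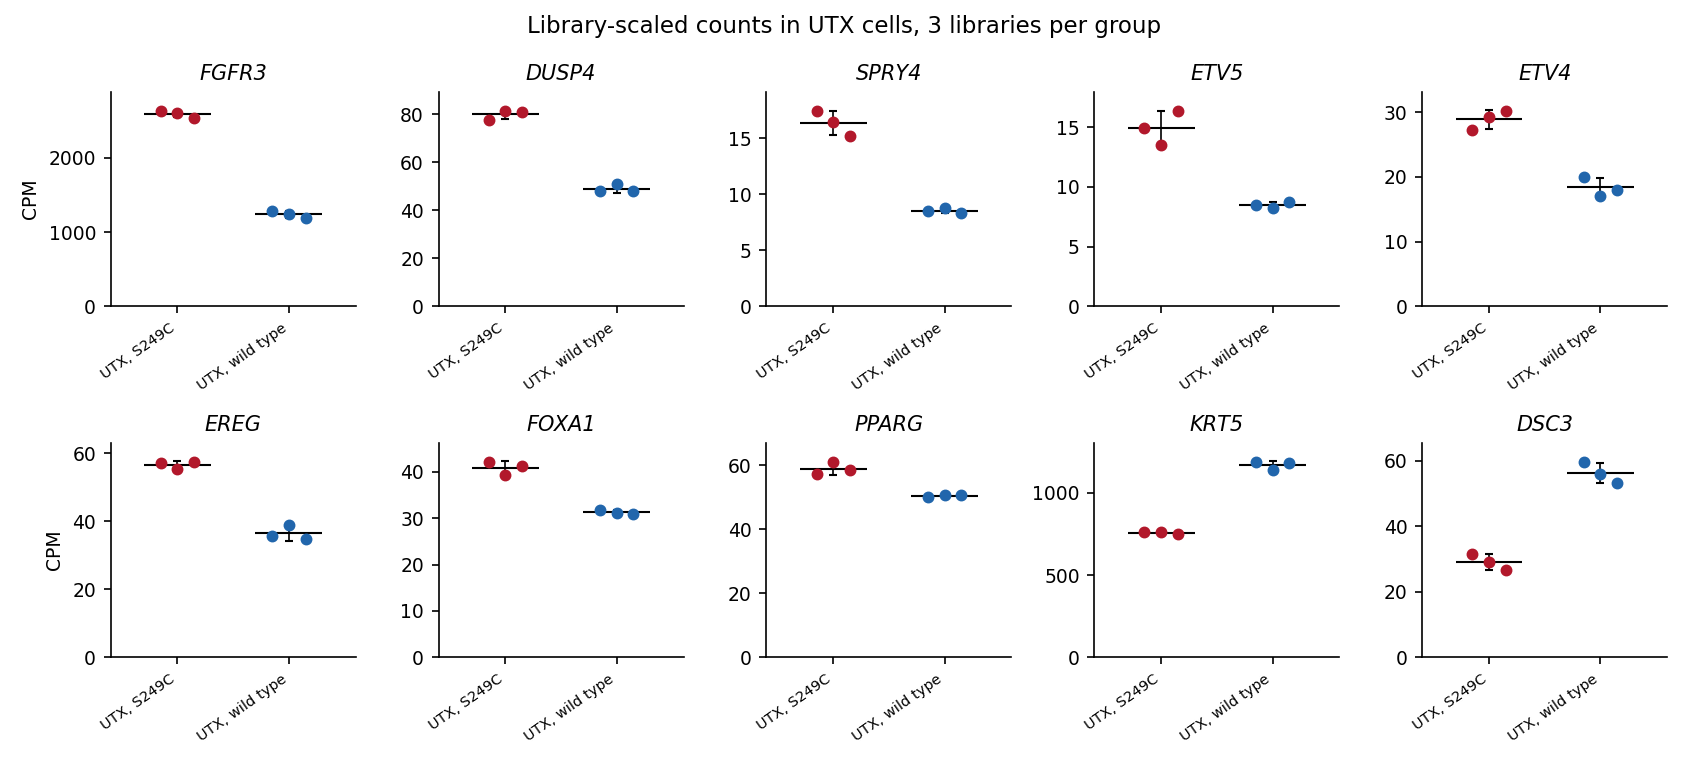
Library-scaled counts (CPM, vertical axes from 0) of 10 genes in the 3 libraries of UTX/S249C (red, left) and of UTX/WT (blue, right), with bars for the mean and SD. FGFR3, DUSP4, SPRY4, ETV5, ETV4, EREG, FOXA1 and PPARG lie higher and KRT5 and DSC3 lower in UTX/S249C, with no overlap between the groups in any panel.

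Of 14 EGF family ligands and ERBB receptors tested, 3 were higher and 0 lower, beside 1.71% and 1.34% of all genes. They numbered 4 and 0 at an unadjusted p under 0.05, beside 14.3% of all genes in either direction, and 3 and 0 by DESeq2. EREG, a ligand of EGFR and ERBB4, had 57.2, 55.3 and 57.3 CPM in UTX/S249C, against 35.7, 39.0 and 34.8 CPM in UTX/WT (1.55-fold, adjusted p = 4.75e-06). TGFA, another EGFR ligand, rose 1.18-fold (adjusted p = 0.00674), and AREG 1.19-fold (adjusted p = 0.0393). The call of AREG was lost without UTX/WT replicate 1, 2 or 3 or UTX/S249C replicate 2 or 3 (adjusted p = 0.159, 0.12, 0.0947, 0.0705 and 0.0868). Of 21 FGF receptors, ligands and adaptors tested, 2 were higher, FGFR3 and the ligand gene FGF5, and 1 was lower. FGFR2, the paralogous receptor of many epithelia, had 190.8, 189 and 180.7 CPM in UTX/S249C, against 248.7, 250.1 and 242.7 CPM in UTX/WT, 1.32-fold lower (log2 fold change -0.40 ± 0.05, adjusted p = 1.41e-04). FGF5 was near the limit of detection, with 1.58, 1.93 and 1.71 CPM in UTX/S249C and 0.65, 0.98 and 0.43 CPM in UTX/WT (adjusted p = 0.00496). In the endothelial list 1 of 5 members tested was higher, EGFL7, at 21.7, 21.1 and 26.2 CPM in UTX/S249C and 17.0, 17.1 and 19.2 CPM in UTX/WT (adjusted p = 0.0314). Its call was lost without UTX/WT replicate 1 or 2 or UTX/S249C replicate 3 (adjusted p = 0.146, 0.136 and 0.088).

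FOXA1 (chr14:37589984-37596059, minus strand, GRCh38), a pioneer transcription factor of luminal cells, had 42, 39.3 and 41.3 CPM in UTX/S249C, against 31.8, 31.2 and 31.0 CPM in UTX/WT. Every S249C library lay above every wild type library, 1.30-fold on average (log2 fold change 0.38 ± 0.05, adjusted p = 8.19e-04), and the call was kept in all 14 alternatives, with a largest adjusted p of 0.0122. PPARG, a nuclear receptor of luminal differentiation, had 57.2, 60.9 and 58.6 CPM in UTX/S249C and 50.1, 50.6 and 50.6 CPM in UTX/WT (1.17-fold, adjusted p = 0.0149). Its call was lost without UTX/WT replicate 1, 2 or 3 or UTX/S249C replicate 2 (adjusted p = 0.0675, 0.0616, 0.0532 and 0.0735). Of 21 luminal transcription factors tested, these 2 were higher and 0 lower, beside 1.71% and 1.34% of all genes. The counts were 4 and 3 at an unadjusted p under 0.05, beside 14.3% of all genes in either direction, and 3 and 1 by DESeq2. GATA3 had 50, 49.1 and 50.9 CPM in UTX/S249C and 49.8, 47.9 and 47.6 CPM in UTX/WT (adjusted p = 0.808). ELF3, an epithelial ETS factor, KLF5 and GRHL2 differed by -0.01, -0.12 and -0.15 on the log2 scale (adjusted p = 0.975, 0.241 and 0.0996). GRHL3, a factor of surface epithelium, had 4.26, 3.64 and 3.99 CPM in UTX/S249C and 2.98, 2.61 and 3 CPM in UTX/WT, groups that did not overlap, and did not pass (adjusted p = 0.0987).

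A minority of the luminal surface genes passed the test, by small amounts. Of 32 tested, 6 were higher and 0 lower, beside 1.71% and 1.34% of all genes, with a median log2 fold change of 0.15. In 15 all S249C libraries lay above all wild type libraries and in 0 below, beside 9.87% and 10.4% of all genes. At an unadjusted p under 0.05 there were 12 rises and 0 falls, beside 14.3% of all genes in either direction, and by DESeq2 7 and 0. AGR2, a disulfide isomerase of secretory epithelium, had 19.3, 17.3 and 20.3 CPM in UTX/S249C, against 13.6, 14.0 and 13.1 CPM in UTX/WT (1.40-fold, adjusted p = 0.00298). The keratin KRT7 rose 1.28-fold (adjusted p = 0.00525), the calcium-binding protein S100P 1.27-fold (adjusted p = 0.01), the surface antigen PSCA 1.32-fold (adjusted p = 0.0134) and the abundant keratin KRT8 1.15-fold (adjusted p = 0.0276). UPK1B, a uroplakin of the umbrella cell membrane, which was named after its values were seen, rose 1.14-fold (adjusted p = 0.0414). The uroplakin gene UPK2, likewise named after its values were seen, had 20.2, 18.8 and 22.5 CPM in UTX/S249C and 23.3, 21.8 and 22 CPM in UTX/WT, which overlapped (adjusted p = 0.512). The count of rises was 2, 3 and 4 without UTX/WT replicate 1, 2 and 3, 4 without UTX/S249C replicate 2 or 3, 5 without UTX/S249C replicate 1, and 3 without replicate 3 of both groups. Of the genes named, AGR2 and KRT7 kept their calls in all 14 alternatives.

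Basal genes went mainly the other way, with 6 of 26 lower and 2 higher, beside 1.34% and 1.71% of all genes. The list's median log2 fold change was -0.13. In 4 all S249C libraries lay above all wild type libraries and in 10 below, beside 9.87% and 10.4% of all genes. At an unadjusted p under 0.05 there were 4 rises and 12 falls, beside 14.3% of all genes in either direction. By DESeq2 the calls were 2 higher and 8 lower. KRT5, the keratin that pairs with KRT14 in basal cells, had 760, 762 and 752 CPM in UTX/S249C, against 1185, 1137 and 1182 CPM in UTX/WT (1.54-fold lower, log2 fold change -0.62 ± 0.04, adjusted p = 7.98e-07). KRT14 had 33.2, 39.7 and 40.2 CPM in UTX/S249C and 48.2, 49.1 and 52.8 CPM in UTX/WT (adjusted p = 0.00407). For neither keratin did the groups overlap. DSC3, a desmosomal cadherin, had 31.6, 29.1 and 26.8 CPM in UTX/S249C, against 59.5, 56.0 and 53.3 CPM in UTX/WT (1.93-fold lower, adjusted p = 1.35e-06). KRT6A was 1.18-fold lower (adjusted p = 0.00196), TP63, the basal transcription factor, 1.24-fold (adjusted p = 0.0109) and PKP1, a desmosomal plaque protein named after its values were seen, 1.25-fold (adjusted p = 0.0145). TP63 lost its call without UTX/WT replicate 1 or 2 (adjusted p = 0.0686 and 0.0633). The basal list also held 2 genes that rose, SOX9, a transcription factor of progenitor cells, at 33.7, 37.2 and 36.4 CPM in UTX/S249C against 26.0, 24.3 and 25.0 CPM in UTX/WT (1.43-fold, adjusted p = 6.85e-05) and the cornified envelope gene IVL, described next. The falls in the list numbered 4 to 8 with 1 library left out and 5 without replicate 3 of both groups. Of the other basal markers looked at, CDH3 had 456, 457 and 474 CPM in UTX/S249C and 429, 424 and 430 CPM in UTX/WT. CD44 had 898, 897 and 794 CPM in UTX/S249C and 934, 942 and 901 CPM in UTX/WT.

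In the squamous and cornified envelope list, 13 of 34 members had no row and 19 were tested. Of the 19 tested, 1 was higher and 2 were lower, beside 1.71% and 1.34% of all genes. IVL, involucrin of the cornified envelope, had 48.4, 51.6 and 51.1 CPM in UTX/S249C and 42.9, 40.1 and 44.3 CPM in UTX/WT (1.19-fold, adjusted p = 0.0167). The lipid transporter ABCA12 was 1.42-fold lower (adjusted p = 0.0258), and the keratin KRT1, at 0.26, 0.51 and 0.11 CPM in UTX/S249C and 0.78, 1.21 and 1.40 CPM in UTX/WT, was close to the limit of detection. The call of IVL was lost without UTX/WT replicate 1 or 2 or UTX/S249C replicate 2 (adjusted p = 0.0606, 0.0998 and 0.0711). ABCA12 lost its call without UTX/WT replicate 1, 2 or 3 or UTX/S249C replicate 1 or 3 (adjusted p = 0.0686 to 0.127), and KRT1 without UTX/WT replicate 2 or 3 or UTX/S249C replicate 1 or 3 (adjusted p = 0.073 to 0.104).

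**Figure D3:**
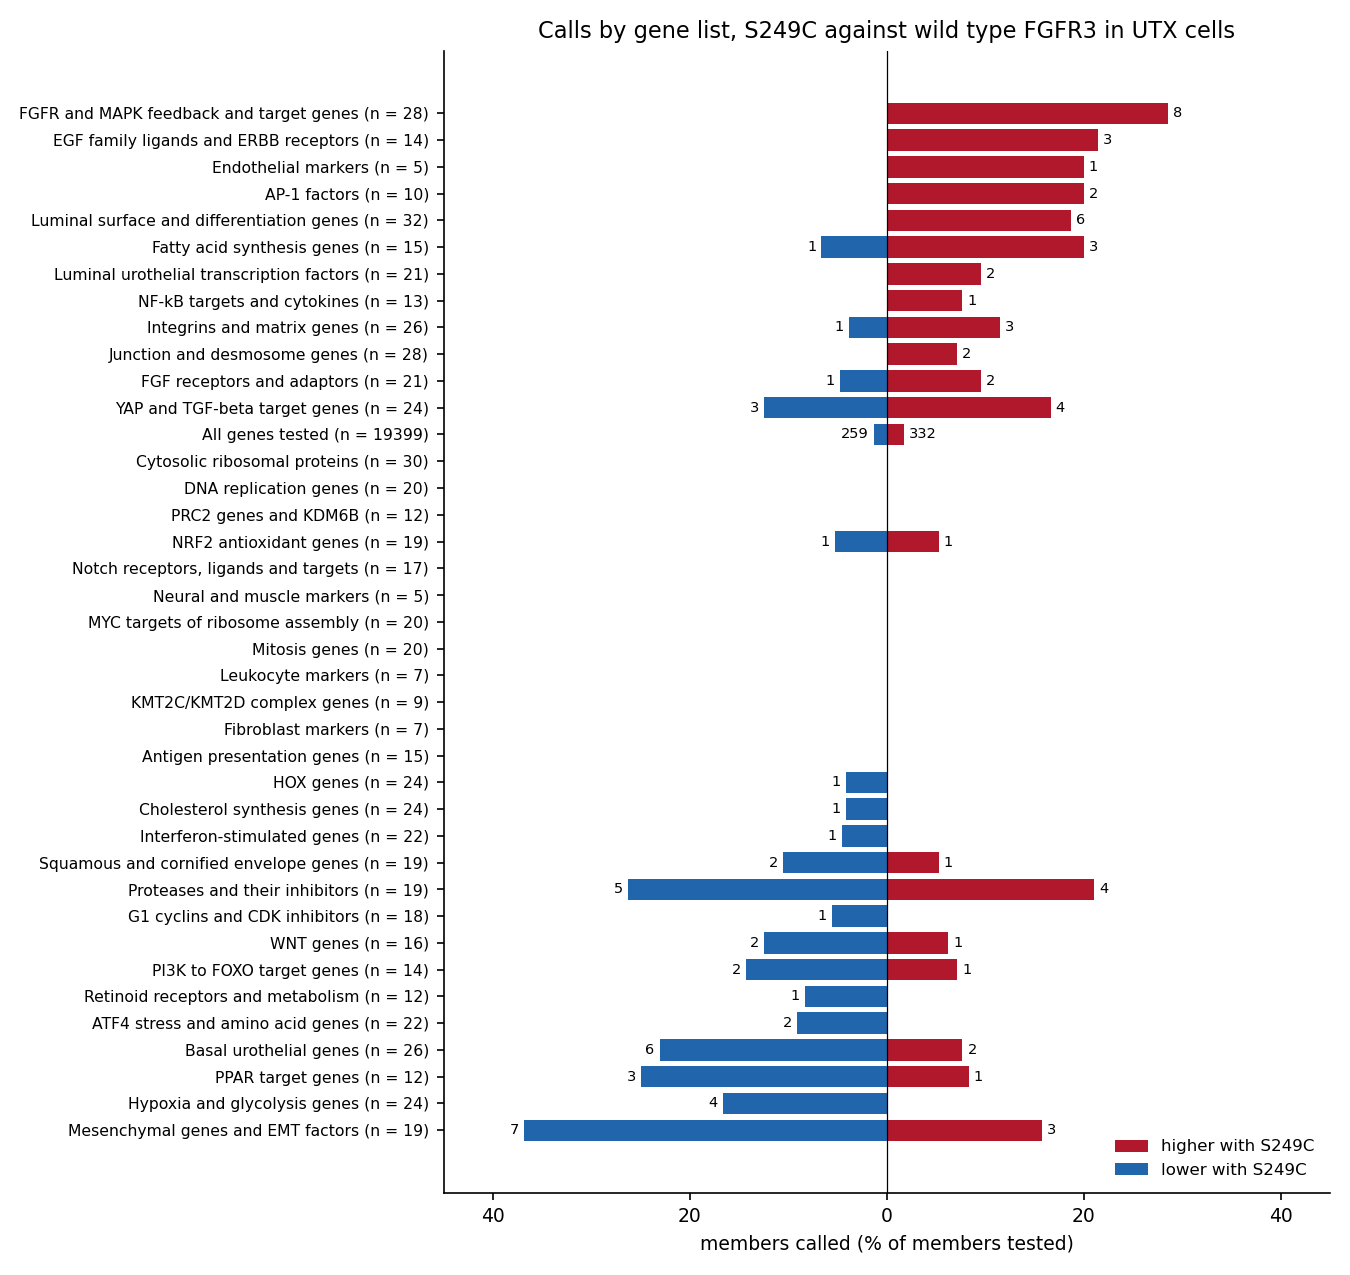
Share of tested members called in UTX/S249C against UTX/WT for each gene list with at least 5 tested members (% of members tested, rises in red to the right, falls in blue to the left), with the number called beside each bar and the number tested after each name. The MAPK list shows 8 rises and 0 falls of 28 and the mesenchymal list 3 rises and 7 falls of 19, beside 332 and 259 of 19399 genes.

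Mesenchymal genes held the highest share of falls among lists of at least 10 genes tested. Of 19, 7 were lower and 3 higher, beside 1.34% and 1.71% of all genes, with a median log2 fold change of -0.17. SERPINE2, a secreted protease inhibitor, had 63.9, 70.2 and 69.0 CPM in UTX/S249C, against 102, 105 and 110.5 CPM in UTX/WT (1.56-fold lower, adjusted p = 5.19e-06). CDH2, N-cadherin, was 1.40-fold lower (adjusted p = 8.37e-04) and LOX, a collagen cross-linking enzyme, 1.61-fold lower (adjusted p = 0.00156). FN1, fibronectin, named after its values were seen, had 820, 820 and 622 CPM in UTX/S249C and 1194, 1134 and 1001 CPM in UTX/WT (adjusted p = 0.00537), with replicate 3 the lowest of each group. AXL, a receptor tyrosine kinase, SPARC, a matrix glycoprotein, and MMP14, a membrane metalloprotease named after its values were seen, rose. AXL had 426, 411 and 413 CPM in UTX/S249C and 323, 306 and 295 CPM in UTX/WT (1.35-fold, adjusted p = 1.05e-04). With 1 library left out, the falls in this list numbered 6, and they numbered 6 without replicate 3 of both groups.

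Extracellular proteins moved both ways. Of 26 integrin and matrix genes tested, 3 were higher and 1 lower, beside 1.71% and 1.34% of all genes. The fibrillin gene FBN2 had 34.6, 34.6 and 25.9 CPM in UTX/S249C, against 15.9, 14.8 and 13.8 CPM in UTX/WT (2.13-fold, adjusted p = 1.54e-05), CCN2, a matricellular target of YAP and TGF-beta, rose 1.88-fold (adjusted p = 0.00496) and the integrin subunit ITGB5 1.26-fold (adjusted p = 0.00105). COL12A1 was lower, at 165, 152 and 119 CPM in UTX/S249C and 230, 217 and 198 CPM in UTX/WT (adjusted p = 0.00373). Of 19 proteases and inhibitors, 4 were higher (ADAM8, PLAT, PLAU and ST14) and 5 lower (SERPINB2, SERPINB13, TIMP3, KLK10 and ADAMTS1), of which PLAT, PLAU, ST14 and ADAMTS1 were named after their values were seen. ADAM8, a membrane metalloprotease, rose 1.47-fold (adjusted p = 1.17e-04), whereas the inhibitors SERPINB2 and TIMP3 fell 1.65-fold and 1.30-fold (adjusted p = 1.54e-05 and 7.83e-04), and the kallikrein KLK10 fell 1.30-fold (adjusted p = 0.00213). The rises in this list numbered 1 without UTX/WT replicate 2.

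Calls in the signalling and metabolic lists stood beside 1.71% of all genes higher and 1.34% lower. Of all genes, 14.3% had an unadjusted p under 0.05. Of 14 PI3K to FOXO target genes, TRIB2, a pseudokinase, was higher at 11.9, 10.1 and 11.9 CPM in UTX/S249C against 5.62, 3.91 and 4.95 CPM in UTX/WT (2.33-fold, adjusted p = 1.19e-05), and PIK3IP1 and CCNG2 were lower (adjusted p = 0.0136 and 0.0418). Both falls were lost without several single libraries. Hypoxia and glycolysis genes held 0 rises and 4 falls of 24 (3 and 6 at an unadjusted p under 0.05, 1 and 4 by DESeq2), led by NDRG1, at 29.3, 34.1 and 30.5 CPM in UTX/S249C and 46.3, 49.9 and 48.3 CPM in UTX/WT (adjusted p = 4.27e-05), while the list's median log2 fold change was 0.009. The other falls were those of EGLN3, an oxygen-sensing hydroxylase (1.59-fold, adjusted p = 0.00386), the glycolytic regulator PFKFB3 (1.19-fold, adjusted p = 0.00309) and the peptide hormone ADM (1.22-fold, adjusted p = 0.0315), and ADM lost its call without UTX/WT replicate 2 or 3 or UTX/S249C replicate 1 or 2 (adjusted p = 0.116, 0.168, 0.149 and 0.132). Among 15 fatty acid synthesis genes, 3 were higher and 1 lower. The desaturase gene SCD had 146, 143 and 136 CPM in UTX/S249C, against 106, 110 and 105 CPM in UTX/WT (1.32-fold, adjusted p = 8.39e-05), and kept its call in all alternatives, whereas the calls of SREBF1, FASN and ME1 were each lost without several single libraries, with largest adjusted p-values of 0.281, 0.194 and 0.271. The CDK inhibitor CDKN2B was 1.33-fold lower (adjusted p = 3.65e-04). Of 12 PPAR target genes, ANGPTL4, a secreted lipase inhibitor, rose 1.76-fold (adjusted p = 2.25e-04) and 3 fell, the glycerol channel AQP3 (1.38-fold, adjusted p = 0.00308), the fatty acid binding protein FABP5 (1.29-fold, adjusted p = 0.00714) and the carnitine transferase CPT1A (1.15-fold, adjusted p = 0.0336). FABP5 lost its call without UTX/WT replicate 3 (adjusted p = 0.0537), and CPT1A without 5 of the 6 libraries in turn (adjusted p = 0.0743 to 0.151).

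Of 16 WNT genes tested, 1 was higher and 2 lower. Over all genes, 1.71% were higher and 1.34% lower, and 14.3% had an unadjusted p under 0.05. The ligand gene WNT5A had 23.1, 26 and 21.6 CPM in UTX/S249C, against 32.4, 32.7 and 33.2 CPM in UTX/WT (1.39-fold lower, adjusted p = 0.00153). WNT10A fell 1.23-fold (adjusted p = 0.00624), and the WNT inhibitor DKK1 rose 1.30-fold (adjusted p = 0.00909), a call lost without UTX/WT replicate 1 (adjusted p = 0.066). Of 24 YAP and TGF-beta target genes, 4 were higher (CCN2, ANKRD1, AXL and TGFBR2) and 3 lower, among them TGFBI and ID2, of which TGFBR2 and ID2 were named after their values were seen. The rises numbered 2 without UTX/WT replicate 1, and the falls 1 without UTX/WT replicate 2 or 3 or UTX/S249C replicate 2 or 3. The desmosomal genes DSC3 and PKP1, described above as lower, were not members of the junction list. Of its 28 genes tested, 2 were higher and 0 lower (5 and 0 at an unadjusted p under 0.05, 1 and 0 by DESeq2). They were the tight junction gene CGN, at 51.5, 46.2 and 46 CPM in UTX/S249C and 39.7, 38.7 and 40.2 CPM in UTX/WT (1.21-fold, adjusted p = 0.0152), and the connexin gene GJA1, at 1.62, 1.97 and 2.03 CPM in UTX/S249C and 0.65, 0.93 and 0.43 CPM in UTX/WT (adjusted p = 0.0107). CGN lost its call without UTX/WT replicate 1 or 2 or UTX/S249C replicate 1 (adjusted p = 0.0538, 0.0769 and 0.0565), and GJA1 without UTX/WT replicate 1 or 3 (adjusted p = 0.0555 and 0.0637). Of 10 AP-1 factors, 2 were higher, FOSL1 and MAFF, a small MAF protein (1.25-fold, adjusted p = 0.0136), and 0 lower (3 and 3 at an unadjusted p under 0.05, 2 and 0 by DESeq2), and neither call was kept without UTX/WT replicate 1 or 3. Of 19 NRF2 antioxidant genes, ALDH3A1 was higher, at 21, 21.7 and 27.2 CPM in UTX/S249C and 13.2, 14.4 and 15.8 CPM in UTX/WT (1.61-fold, adjusted p = 6.80e-04), and the cystine transporter SLC7A11 lower (1.21-fold, adjusted p = 0.00672), a call lost without UTX/WT replicate 2 (adjusted p = 0.059).

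No member was called among 20 DNA replication genes, 20 mitosis genes, 30 ribosomal protein genes, 20 MYC targets of ribosome assembly, 17 Notch genes, 15 antigen presentation genes, 9 KMT2C/KMT2D complex genes and 12 genes of PRC2 with KDM6B by the edgeR test. Over all genes tested, that test called 1.71% higher and 1.34% lower. Having 0 calls in a list of 9 to 30 genes is near those shares. DESeq2 called 2 Notch genes higher and 1 lower and 1 replication gene higher, and 0 in the other lists named. At an unadjusted p under 0.05, the higher and lower members numbered 2 and 0 among replication genes, 0 and 1 among mitosis genes, 1 and 0 among ribosomal protein genes, 1 and 0 among MYC targets, 2 and 2 among Notch genes, 0 and 0 among antigen presentation genes, 2 and 0 among KMT2 complex genes and 0 and 3 among genes of the PRC2 list. Such p-values were found for 14.3% of all genes tested, in either direction. Of 22 interferon-stimulated genes, 1 was called lower, IFIT1 (1.43-fold, adjusted p = 0.00674), beside 1.34% of all genes. In 9 of the 22 all S249C libraries lay below all wild type libraries and in 1 above, beside 10.4% and 9.87% of all genes. The median log2 fold change of that list was -0.19. IFIT1 lost its call without UTX/WT replicate 2 (adjusted p = 0.0513). The table held no row for any of the 13 mitochondrial genes looked for.

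By size, the largest called rise among genes with at least 2 CPM and non-overlapping groups was that of ANTXR2, a receptor for anthrax toxin that binds matrix proteins, with 23.4, 24.2 and 22.7 CPM in UTX/S249C, against 8.26, 8.99 and 8.66 CPM in UTX/WT (2.72-fold, log2 fold change 1.44 ± 0.08, adjusted p = 1.08e-07). ADAMTS12, a secreted metalloprotease, had 12.1, 10.6 and 8.66 CPM in UTX/S249C and 4.15, 4.57 and 3.66 CPM in UTX/WT (2.54-fold, adjusted p = 2.30e-05). The groups were far apart for both. NRP1, a co-receptor for VEGF and semaphorins, had 40.5, 40.2 and 39.6 CPM in UTX/S249C, against 20.5, 21.6 and 19.6 CPM in UTX/WT (1.95-fold, adjusted p = 9.61e-07). PTGER4, a prostaglandin E2 receptor, had 16.7, 15.7 and 16.4 CPM in UTX/S249C, against 7.44, 8.90 and 6.71 CPM in UTX/WT (2.13-fold, adjusted p = 1.46e-05). The other rises were those of the pentraxin PTX3 (2.24-fold), the adhesion molecule CEACAM6 (2.49-fold), the neurotrophin BDNF (2.08-fold), the ERK-binding phosphatase PTPRR (2.12-fold), the ubiquitin ligase NEURL1 (2.05-fold), the glutamate receptor auxiliary protein CNIH3 (1.99-fold), the oxysterol-binding protein OSBP2 (1.96-fold) and the hair keratin KRT86 (2.00-fold), a member of a near-identical gene family whose counts are uncertain. Of these, PTPRR lost its call without UTX/WT replicate 1, 2 or 3 or UTX/S249C replicate 1 (adjusted p = 0.102, 0.0655, 0.0952 and 0.0856), and NEURL1 without UTX/WT replicate 2 or 3 (adjusted p = 0.0623 and 0.0597).

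The largest fall was that of COL4A4, a chain of type IV collagen of basement membranes, with 5.69, 5.32 and 4.95 CPM in UTX/S249C, against 15, 15.7 and 12.9 CPM in UTX/WT (2.74-fold lower, log2 fold change -1.45 ± 0.10, adjusted p = 7.98e-07). COL4A3, its neighbour in the genome and partner in the collagen, named after its values were seen, was at 0.70, 0.69 and 0.75 CPM in UTX/S249C and 2.08, 2.00 and 2.14 CPM in UTX/WT (adjusted p = 0.0135). Both collagen genes were separated between the groups in every library. SERPINB13, a protease inhibitor of squamous epithelium, had 1.98, 2.55 and 2.32 CPM in UTX/S249C and 5.49, 5.31 and 5.42 CPM in UTX/WT (2.37-fold lower, adjusted p = 1.22e-04). MFAP3L (2.17-fold lower), the class II histocompatibility gene HLA-DQB1 (2.12-fold), the teneurin TENM2 (1.96-fold), the semaphorin SEMA3D (1.93-fold), AUTS2 (1.81-fold) and the scaffold protein GRIP1 (1.80-fold) fell and kept their calls in all alternatives. The calls of RAB7B, MAP9, EBF4, the pseudogene WHAMMP4 and RGPD5, a member of a family of near-identical copies, were lost in 6 to 9 of the 14 alternatives, and the read-through gene SEPT5-GP1BB shares reads with its component genes.

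The promoters of called genes were compared with those of all genes tested, using RefSeq sequences on GRCh38.p14 from 250 bases before to 50 after 1 start per gene. These were matched for 257 of the 332 higher and 187 of the 259 lower genes. The AP-1 motif TGAGTCA, read on both strands, was in 5.06% of the promoters of higher genes and 4.28% of those of lower genes, beside 3.52% of all 12193 promoters matched. The ETS motif CCGGAAG was in 8.95% and 6.42%, beside 17.8% of all, and the TEAD motif GGAATGT in 4.28% and 2.67%, beside 2.31%. The cAMP response element TGACGTCA was in 1.56% and 2.67%, beside 2.99%. No motif among these contains another. Windows around an AP-1 match are shown for 3 genes described here that were higher in UTX/S249C and 1 that was lower, with the match in capitals, as written or as its reverse complement TGACTCA:
OSBP2: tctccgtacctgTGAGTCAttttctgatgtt
IVL: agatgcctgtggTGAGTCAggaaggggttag
PLAUR: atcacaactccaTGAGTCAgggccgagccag
SERPINB13: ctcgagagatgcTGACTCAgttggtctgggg
They lie at chr22:30764025-30764055 on the plus strand, chr1:152908411-152908441 on the plus strand, chr19:43670337-43670367 on the minus strand and chr18:63587244-63587274 on the plus strand. The windows of OSBP2 and SERPINB13 lie before the RefSeq start used but inside the GENCODE spans of these genes, chr22:30693782-30907824 and chr18:63586989-63604639. The same letters thus stand before a start of genes that moved in opposite directions, and a match says nothing on its own of whether a factor binds there.

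Set beside the same contrast without UTX, which shares no library with it, fewer genes were called in UTX cells. In EV cells 836 genes were higher with S249C (4.31%) and 1252 lower (6.45%). Of the 332 higher genes of UTX cells, 159 were also higher in EV cells, 47.9% of the UTX calls and 19.0% of the EV calls, and 5 were lower there. Of the 259 lower genes, 174 were also lower in EV cells, 67.2% and 13.9% of the calls, and 5 were higher. DUSP4 had 98.3, 91.7 and 91.9 CPM in EV/S249C and 52.2, 50.5 and 51.6 CPM in EV/WT, and its log2 fold change was 0.71 in UTX and 0.87 in EV cells. For the difference between the backgrounds, the effect in UTX minus that in EV cells, DUSP4 had a log2 value of -0.16 (adjusted p = 0.364), SPRY4 one of 0.16 (adjusted p = 0.63), KRT5 one of 0.19 (adjusted p = 0.218) and FOXA1 one of 0.28 (adjusted p = 0.157), and none of these passed. FOXA1 had 32.1, 36.3 and 35.1 CPM in EV/S249C and 31.1, 31.8 and 33.1 CPM in EV/WT, which overlapped.

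**Figure D4:**
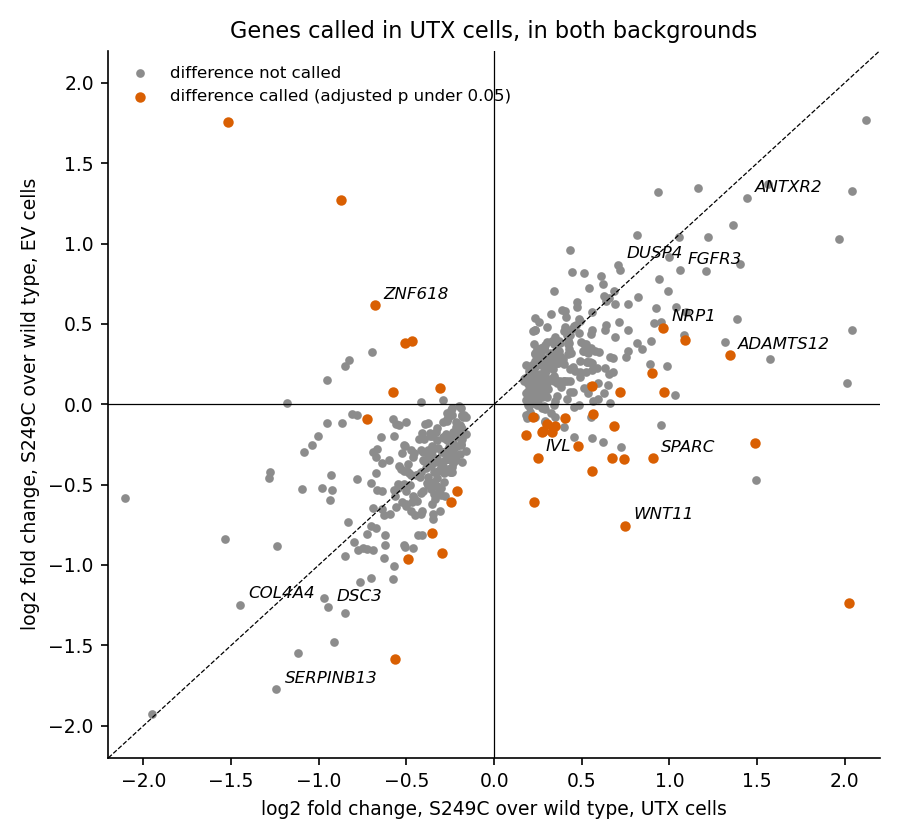
Log2 fold change of S249C over wild type FGFR3 in UTX cells (horizontal) and in EV cells (vertical) for 577 of the 591 genes called in UTX cells, with 14 beyond 2.2 on either axis not drawn; the dashed line marks equal changes. Orange points are genes whose difference between the backgrounds passed an adjusted p of 0.05, such as WNT11, SPARC, ADAMTS12, IVL and NRP1 to the right and ZNF618 to the upper left.

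The difference itself passed for 111 genes whose S249C effect was higher in UTX than in EV cells (0.572%) and 22 whose effect was lower (0.113%). Of the 111, 84 were called lower by S249C in EV cells, 30 were called higher in UTX cells, and 75 were not called in UTX cells. Without UTX/S249C replicate 3 the counts were 193 and 55, and with any other UTX library left out 52 to 65 and 8 to 15. WNT11, a secreted WNT ligand, moved in opposite directions: it had 14.2, 13.7 and 15.8 CPM in UTX/S249C and 8.95, 7.73 and 9.28 CPM in UTX/WT, and 13.5, 12.4 and 14.7 CPM in EV/S249C and 23.9, 23.3 and 21.4 CPM in EV/WT (difference 1.5 on the log2 scale, adjusted p = 9.13e-05). SPARC had 7.60, 7.80 and 6.74 CPM in UTX/S249C and 4.41, 3.49 and 3.90 CPM in UTX/WT, and 2.59, 2.66 and 2.99 CPM in EV/S249C and 3.97, 3.21 and 3.23 CPM in EV/WT (difference 1.24, adjusted p = 0.00486). SCD, SLC9A2, a sodium-proton exchanger, and ALDH3A1, an aldehyde dehydrogenase, rose in UTX cells and did not pass in EV cells, with differences of 0.49, 1.08 and 0.82 (adjusted p = 0.00169, 0.0101 and 0.0151). In the opposite direction, ZNF618 had 1.87, 1.97 and 1.46 CPM in UTX/S249C and 3.11, 2.66 and 2.73 CPM in UTX/WT, and 6.56, 7.14 and 6.39 CPM in EV/S249C and 3.84, 4.85 and 4.38 CPM in EV/WT (difference -1.30, adjusted p = 0.00523).

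By list, the difference passed upward for 6 of 32 luminal surface genes, 3 of 21 luminal factors, 5 of 28 junction genes, 6 of 19 NRF2 antioxidant genes, 3 of 26 basal genes, 3 of 19 squamous genes, 2 of 14 EGF family ligands and ERBB receptors, 2 of 17 Notch genes and 2 of 19 mesenchymal genes, beside 0.572% of all genes, and for 1 gene each of the FOXO target, NF-kB, fatty acid synthesis and hypoxia lists. It passed downward for 1 basal gene and 1 protease gene. The squamous list held 1 rise and 2 falls in UTX cells, against 0 and 13 in EV cells, the luminal surface list 6 and 0, against 3 and 6, the NRF2 list 1 and 1, against 0 and 10, and the cholesterol synthesis list 0 and 1, against 0 and 11. More genes of any kind were called in EV cells: 4.31% of all genes rose and 6.45% fell there, against 1.71% and 1.34% in UTX cells. KRT13, a keratin of the intermediate layers that was named after its values were seen, had 673, 676 and 774 CPM in UTX/S249C and 765, 741 and 759 CPM in UTX/WT, which overlapped, and 686, 656 and 668 CPM in EV/S249C and 1028, 951 and 1012 CPM in EV/WT (difference 0.48, adjusted p = 0.00887). IVL had 28.0, 28.9 and 27.6 CPM in EV/S249C and 36.0, 33.5 and 36.8 CPM in EV/WT, the reverse of its change in UTX cells (difference 0.58, adjusted p = 0.00207). AKR1C2, a reductase of the NRF2 list with near-identical paralogs among which reads may be split, also named after its values were seen, had 59.2, 55.7 and 64.7 CPM in UTX/S249C and 58.2, 61.8 and 68.3 CPM in UTX/WT, and 50.5, 45.2 and 44.5 CPM in EV/S249C and 90.0, 84.2 and 93.4 CPM in EV/WT (difference 0.86, adjusted p = 8.88e-04).

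**Figure D5:**
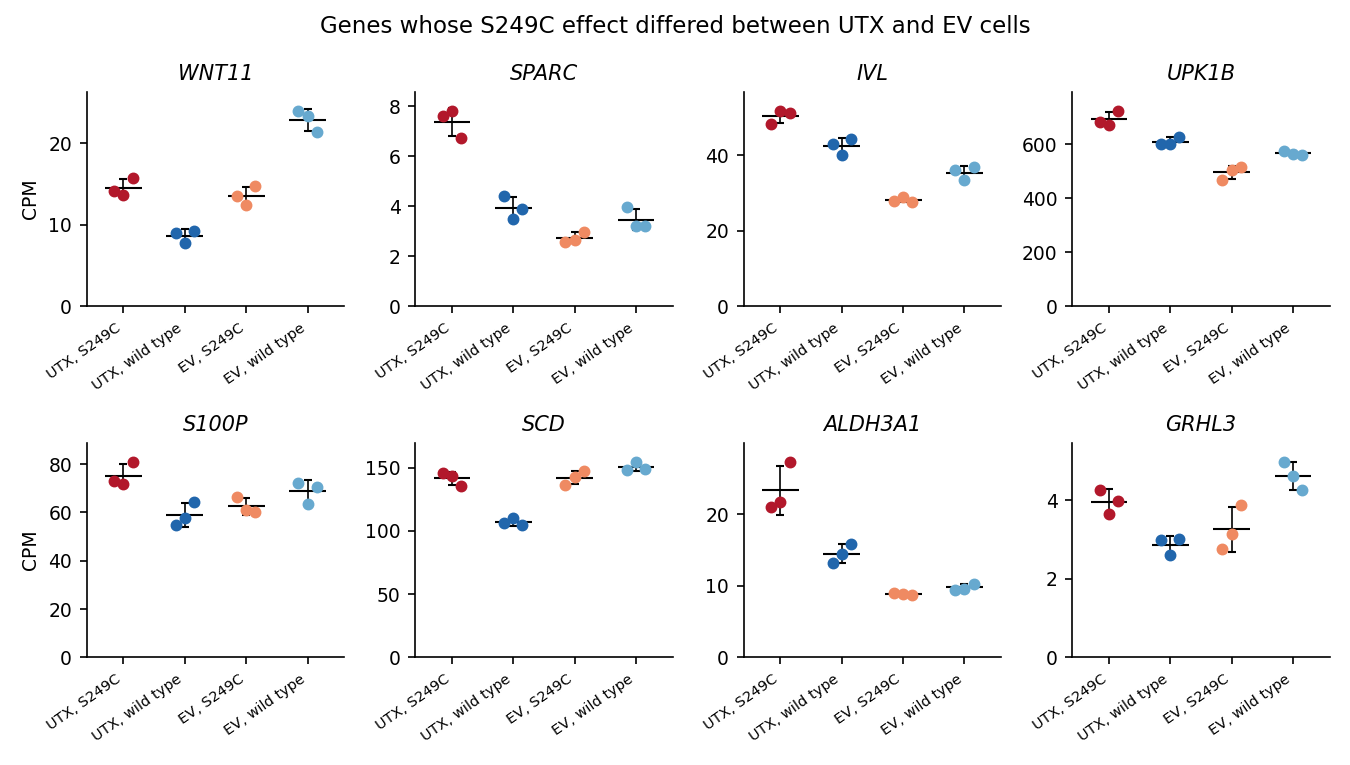
Library-scaled counts (CPM, vertical axes from 0) of 8 genes in the 3 libraries of each of UTX/S249C, UTX/WT, EV/S249C and EV/WT, with bars for the mean and SD. In each panel S249C lies above wild type in the UTX pair, and in the EV pair the S249C mean lies below the wild type mean.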

How the data were processed

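RNA was measured by bulk sequencing, with libraries made with NEBNext Ultra II RNA per the labels' protocols. The deposited values were estimated counts per gene, written by the authors as whole numbers without scaling for depth. Salmon 0.8 and DESeq2 are named in the submitters' processing notes, beside the builds hg19 and GRCh37. The sources used here do not state the annotation release or how transcripts were summed to genes. Salmon can split reads between near-identical genes.

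Genes were kept by edgeR's filterByExpr, scaled by TMM and fitted with edgeR 4.0.16 (glmQLFit, 1 mean per group over 12 libraries, R 4.3.3), with Benjamini-Hochberg adjustment over 19399 genes and a threshold of 0.05. CPM are scaled by TMM, SE is from the quasi-likelihood F statistic, and the difference between backgrounds was an interaction contrast. The file named 15696 genes, a reference table named a further 4319, and 58 had no name. Positions come from GENCODE v29 (GRCh38), another build than that in the notes. In simulated data made from these libraries (19116 genes tested), 87% of 1.5-fold and 94% of 2-fold changes were recovered and 6.7% of calls were false. These rates describe the simulated data and were not split by expression level. The changed genes were drawn only from those averaging at least 2 CPM over the 12 libraries, so recovery below that level was not tested. Of the real calls of at least 2-fold in UTX cells, 11 of 37 higher and 5 of 18 lower averaged 2 CPM or more. Whether they hold for the real libraries, whose replicates differed by more than sampling noise, was not tested.

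The members, the 39 lists and the tests were chosen with earlier results of these data known. Genes named were FGFR3, KDM6A and FOXA1, 8 luminal and basal factors, the 15 largest rises and 15 largest falls and the 5 largest differences each way among called genes with at least 2 CPM and groups that did not overlap, and up to 5 called members per list. Other normalizations, filters, DESeq2 1.42.0, a replicate block and omitted libraries were tried. One alternative, without replicate 3 of both UTX groups, was chosen after seeing the data. One gene that met the rule for named genes is not reported here.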

Additional observations from a re-analysis of the deposited data

Results flagged for a closer look

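For 23 named genes the S249C effect in UTX cells differed from that in EV cells by the interaction test (edgeR, adjusted p under 0.05, of 19399 genes tested). The values are the log2 effect in UTX minus that in EV cells. Secreted and matrix genes were WNT11 at 1.5, SPARC at 1.24, the metalloproteases ADAMTS12 at 1.04 and ADAMTS6 at -0.89, the ligand APLN at -0.63 and the secreted kinase FAM20C at -0.65. Surface, junction and differentiation genes were TGM5, a transglutaminase of the epidermis, at 1.98, the carboxypeptidase-like CPVL at 1.89, IVL at 0.58, S100P at 0.48, CGN, a tight junction protein, at 0.44 and CDH2 at 0.47. In UTX cells TGM5 and CPVL did not pass (adjusted p = 0.184 and 0.122), and both were called lower with S249C in EV cells. TGM5 was near the limit of detection in EV/S249C, at 0.88, 0.48 and 0.49 CPM. CDH2 fell with S249C in both backgrounds, by less in UTX cells. Transcription factors were GRHL3 at 0.96, ELF3 at 0.47, PPARG at 0.30 and ZNF618 at -1.30. Receptors and transporters were NRP1 at 0.49, PTGER4 at 0.69 and SLC9A2 at 1.08. Metabolic genes were SCD at 0.49, ALDH3A1 at 0.82 and OSBP2 at 0.89. The last was the pseudogene RPL36AP37 at -0.86, whose counts can include reads of its parent gene. Of the 10 named for the size of this difference, WNT11, SPARC, CPVL, SLC9A2 and ZNF618 passed in all 13 alternatives of this test, whereas APLN was lost in 9, FAM20C in 4, TGM5 in 3, RPL36AP37 in 2 and ADAMTS6 in 1, without UTX/WT replicate 2.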

How the results depend on the processing

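The counts of higher and lower genes in UTX cells stayed within 1.5 times the reported ones under another scaling, another filter and DESeq2 (363 and 283), and with the UTX libraries fitted alone (241 and 194). They were 195 and 151 without replicate 3 of both groups, and 172 to 321 and 119 to 214 with 1 library left out. The higher genes of at least 2-fold numbered 17 by DESeq2, and the lower ones 8 by DESeq2 and 10 to 18 with 1 library left out; the cause was not tested. The differences between backgrounds numbered 72 higher with library totals alone in place of TMM, and 52 to 193 higher and 8 to 55 lower with 1 library left out. Where a library was left out, its group was fitted with 2 libraries. Of 108 named genes called, 64 kept their call in all 14 alternatives and 44 lost it in at least 1, and none reversed. Of the 591 calls, 48.2% to 99.5% were kept across alternatives.

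The labels do not say whether the replicate numbers pair the samples, and the main fit did not use them. Same-numbered UTX libraries deviated together with r = 0.295, 0.015 and 0.401 over 11908 genes. Of the 6 libraries, 4 correlated best with their own number, a hint from the data and not from the design. With a replicate block the calls were 279 higher and 216 lower in UTX cells, 757 and 1142 in EV cells, and 66 and 14 for the difference.

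Limits: FGFR3 RNA differed between the groups, libraries were 3 per group, and changes under 1.5-fold made up most calls, a size at which the simulated data did not test recovery.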
